A study of Homo sapiens with 2 samples.

Results

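The genes described here encode proteins of the red cell membrane, namely ANK1, SPTB, SLC4A1, EPB41, EPB42, GYPB, GYPC and RHAG, and GATA1 ChIP-on-Chip signal along them was measured in Meg-01, an untreated human megakaryocytic leukemia cell line. They were chosen by name, and their probes were those that the array annotation assigns to them with a distance to a transcription start. All 8 genes were found among the 17279 genes that the arrays name, with 288 of the 473868 probes used, and 7 of them had enough adjacent probes for a window. DNA recovered with a goat antibody to the C-terminus of GATA1 (C-20) was labeled with Cy5, and DNA recovered with normal goat IgG from the same chromatin was labeled with Cy3. The pair was hybridized to a promoter set of 2 arrays with different probes, chIP1 and chIP2. Every probe was hybridized once, replicates and a dye swap are lacking, and so the values below carry no error between samples and no test. Both pull-downs came from 1 chromatin sample of a line of the megakaryocytic lineage, and no erythroid cell was measured beside it.

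The red cell membrane is held in shape by a flexible protein mesh under the lipid bilayer. Spectrin tetramers form the mesh, ankyrin ties it to band 3 with the help of protein 4.2, and protein 4.1 joins spectrin to actin and to glycophorin C. GATA1 is a zinc finger transcription factor of erythroid cells, megakaryocytes, eosinophils and mast cells that binds DNA at GATA words, and many genes of red cell membrane proteins are known as its targets in erythroid cells.

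Values are log2(IP/IgG) of the processed intensities, centered so that each array has a median of 0. On this scale 1 is 2-fold toward the IP and -1 is 2-fold toward the IgG. A window is the mean of 3 adjacent probes whose neighbors start within 1000 bp of the center, and it is called enriched at 1 or more and IgG-side at -1 or less. Over 480 spots of the same control probe the SD was 0.05 (chIP1) and 0.04 (chIP2), a measure of spotting and scanning error alone. Over all kept probes it was 0.97 on both arrays. All 288 probes of these genes were well above background in both channels. Positions are those of the array design, whose genome build is not given in the sources used here.

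Promoter sequences are shown first for EPB42, whose signal lay over its start, and for RHAG and GYPC, whose signal at the start stayed below 2-fold. Each line gives the 250 bases just upstream of the start, 5′ to 3′ on the gene's strand, from RefSeq (GRCh38.p14), with GATA words in capitals. These positions belong to another build than the array's and were not converted. EPB42 lies at chr15:43221019-43221268 on the minus strand, RHAG at chr6:49636840-49637089 on the minus strand and GYPC at chr2:126655908-126656157 on the plus strand.
EPB42: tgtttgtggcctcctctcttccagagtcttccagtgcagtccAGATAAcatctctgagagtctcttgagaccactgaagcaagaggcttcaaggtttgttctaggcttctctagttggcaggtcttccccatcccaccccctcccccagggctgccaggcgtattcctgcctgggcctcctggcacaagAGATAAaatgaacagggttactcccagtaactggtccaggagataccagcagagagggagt
RHAG: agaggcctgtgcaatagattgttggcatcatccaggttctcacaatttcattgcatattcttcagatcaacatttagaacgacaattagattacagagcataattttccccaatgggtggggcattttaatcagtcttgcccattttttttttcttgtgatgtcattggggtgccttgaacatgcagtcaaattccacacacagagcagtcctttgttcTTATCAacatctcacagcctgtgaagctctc
GYPC: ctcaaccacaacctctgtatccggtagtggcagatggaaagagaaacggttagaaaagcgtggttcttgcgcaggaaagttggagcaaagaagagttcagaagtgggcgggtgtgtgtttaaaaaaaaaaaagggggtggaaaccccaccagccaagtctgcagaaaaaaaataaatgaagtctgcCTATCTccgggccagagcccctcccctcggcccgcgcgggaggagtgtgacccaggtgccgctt

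GATA words were AGATAA, the same word ending in G, and both of these with T as the first base, searched on both strands. The EPB42 sequence held AGATAA on the sense strand from 208 to 203 bases and again from 61 to 56 bases upstream of the start. RHAG held TGATAA on the antisense strand from 31 to 26 bases upstream, printed as its reverse complement, and GYPC held AGATAG on the antisense strand from 64 to 59 bases upstream. RefSeq promoters were found for 6 of the 8 genes, with 9 sequences between them, because SPTB, EPB41 and GYPB each had a pair of starts. No entry was found for SLC4A1, and chromosome 8, which holds ANK1, was left out of the search for these genes. A GATA word was present in 7 of the 9 sequences, against 22.3% of the 35116 promoters of the same length. The sequences of GYPB overlap and share a match, which was counted in both. Each of the 6 genes had the word in at least 1 sequence, against 22.9% of genes by their first promoter alone. SPTB, EPB41 and GYPB could have it in either sequence of their pair. The word CCNCNCCC, a KLF1-type sequence, was present in 7 of the 9, against 53.4% of all promoters. In EPB42 this word overlapped itself 3 times between 117 and 104 bases upstream, between the GATA words. These are matches of letters, and no binding site was read from them.

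Of the 7 genes with a window, 6 had an enriched window, against 57.1% of the 17054 genes with a window on the arrays. The gene without one was GYPC, and GYPB could not be called because its single probe has no neighbor near enough. The count follows the number of windows a gene has. Genes with 40 windows or more, like ANK1 (43), EPB41 (52) and SLC4A1 (54), were enriched in 82.9% of cases, genes with 20 to 39 windows, like GYPC (28), RHAG (30) and SPTB (37), in 62.9%, and genes with 10 to 19 windows, like EPB42 (12), in 45.7%. The median of the highest windows was 1.13 for the 7 genes and 1.09 for all genes. At 3-fold none of the 7 had a window, whereas 20.6% of all genes did. The highest window of EPB42 fell just short of that limit, at 2.99-fold. By windows rather than genes, 20 of the 256 windows of these genes, or 7.81%, were enriched, close to the 7.62% of all windows.

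Windows on the IgG side made up a smaller share at these genes than over the arrays. Only 6 of the 256 windows, or 2.34%, were IgG-side, against 9.65% of all windows. Of the 7 genes, 3 had such a window (EPB41, SPTB and RHAG), against 52.9% of all genes. This share too follows the number of windows. It was 76.3% for genes with 40 windows or more, 61.8% with 20 to 39 and 38.3% with 10 to 19. When windows were ranked within the same twentieth of array intensity, 5 of the 256, or 1.95%, fell in the lowest 5%, and 15, or 5.86%, in the highest 5%. By genes the same ranking ran the other way, since 4 of the 7 had at least 1 window in that lowest 5%, against 42.9% of all genes. By the scanner error model described below, 28 of the 256 windows, or 10.9%, leaned to the IgG, against 17.3% of all windows, and 43, or 16.8%, to the IP, against 15.0%. Neighboring windows share probes, so these shares rest on fewer independent values than their counts. No test of the shares was run.

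**Figure D1:**
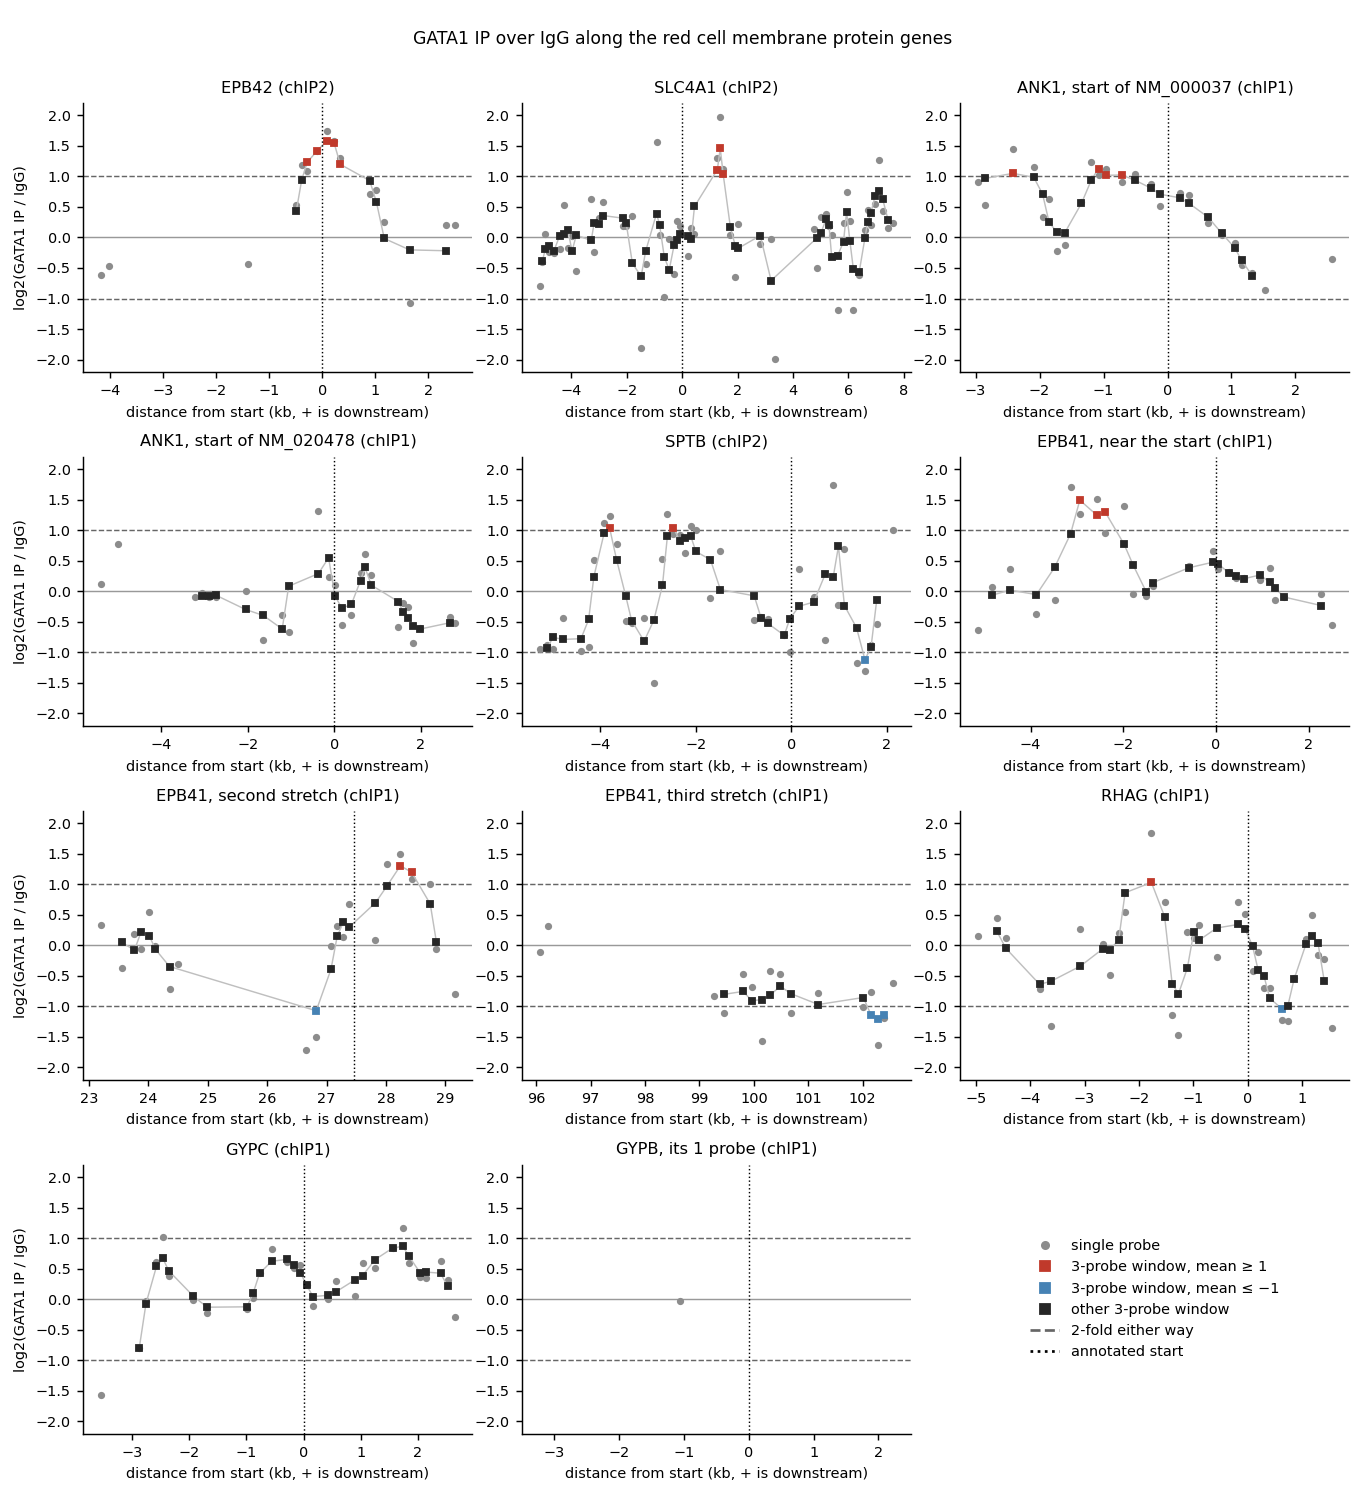
Log2(GATA1 IP/IgG) of single probes (circles) and of 3-probe windows (squares, at the center probe) against distance from the annotated start in kb. Red squares are at 1 or more and blue squares at -1 or less. EPB42 has its red squares over the start, ANK1, SPTB and RHAG have theirs upstream, SLC4A1 inside the gene, EPB41 both upstream and inside, and GYPC has none. The dotted line in the second stretch of EPB41 is the start of a further mRNA.

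EPB42 encodes protein 4.2, which stabilizes the contact of band 3 with ankyrin. Under the reported processing it had the highest window of the group, and its enrichment was centered on the start. The rank changed with the trend on distance removed, with normexp, where EPB41 (1.67) exceeded EPB42 (1.62), and with single probes, where SLC4A1 (1.97) and RHAG (1.83) exceeded it (1.74). On chIP2, at chromosome 15 from 41300521 to 41300897, the window centered 84 bp inside the gene averaged 1.58, with probes of 1.57, 1.74 and 1.42. The processed intensities of these probes were 3137, 4774.5 and 4648 for the IP and 1049, 1419 and 1730 for the IgG. The signal was broad and fell off to both sides. There were 5 adjacent enriched windows, from 343 bp inside the gene to 281 bp upstream, with means of 1.20, 1.54, 1.58, 1.42 and 1.23. The probes of these windows spanned 1340 bp. Farther out the values dropped to 0.25 at 1172 bp and -1.08 at 1651 bp inside the gene, and to -0.43 at 1395 bp upstream.

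The 7 probes of EPB42 within 500 bp of the start ranged from 0.53 to 1.74, with a mean of 1.27. Over all genes, probes this near to a start had a mean of 0.26 with an SD of 0.83, and 68.2% of them were above 0. All 7 of the EPB42 probes were. The mean over the 16 probes of the gene was 0.53, at percentile 95.6 of the genes of its array, the highest rank in the group. Its highest window was at percentile 80.4. A run of at least 5 adjacent enriched windows was found at 5.68% of all genes. Among windows within the same 500 bp step of distance to a start, that of EPB42 was at percentile 98.6. With the trend on distance removed from all probes, the EPB42 window was 1.34, at percentile 68.8, and lay below those of EPB41 (1.69, percentile 81.4) and SLC4A1 (1.495, percentile 76.2).

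EPB41 encodes protein 4.1R, which strengthens the binding of spectrin to actin. It was tiled in 3 stretches on chromosome 1 of chIP1, around the start and around 2 sites inside the gene, and these differed. Upstream of the start, the window centered at 2937 bp (29031084 to 29031694) averaged 1.49, with probes of 1.71, 1.27 and 1.51. These were among the brightest probes of the array, with processed IP intensities of 11361, 34199 and 12444 and IgG intensities of 3487, 14249 and 4368. The 3 enriched windows there covered 1198 bp. The signal did not reach the start, where the 4 probes within 500 bp lay between 0.21 and 0.66.

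The second stretch of EPB41 held a further enriched window of 1.30, centered 28241 bp inside the gene, with probes of 1.33, 1.499 and 1.09 (29062235 to 29062699). The array annotation places the start of another EPB41 mRNA 27463 bp downstream of the first, and the window lay 778 bp inside that mRNA. RefSeq lists 2 starts of EPB41 that are 27469 bp apart in GRCh38.p14. Upstream of this inner start, from 26653 to 27073 bp, the sign turned, with probes of -1.71, -1.50 and -0.01 averaging -1.07 at 26825 bp. Nearer to the inner start, the probes at 27178, 27281 and 27382 bp read 0.32, 0.13 and 0.68. The third stretch, from 96062 to 102562 bp inside the gene, lay on the IgG side almost throughout. Of its 16 probes 1 was above 0, their mean was -0.78, and 3 adjacent windows were at -1.14, -1.20 and -1.15. EPB41 thus held the largest number of enriched windows in the group along with EPB42, at 5 each, and also the largest number of IgG-side windows, at 4.

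SLC4A1 encodes band 3, the anion exchanger and main membrane anchor of the mesh. Its 58 probes on chIP2 averaged 0.04, and the enrichment was confined, among its 54 windows, to 3 adjacent windows inside the gene. The highest, centered 1375 bp downstream of the start on chromosome 17 (39699491 to 39699745), averaged 1.46, with probes of 1.12, 1.97 and 1.30. Their IP intensities were 3550, 2949 and 4381 against IgG intensities of 1631, 751 and 1769. The probes on both sides of these 3 were near 0, at 0.03 and 0.06, so the rise rested on these 3 probes. No probe of the gene lay between 1270 and 445 bp, so the extent of the rise toward the start was not measured. Within 500 bp of the start, the 7 probes lay between -0.60 and 0.27. A lone probe 927 bp upstream read 1.57, but its neighbors read 0.04 and -0.44. The window of 5 probes reached 0.92, below the threshold.

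ANK1 encodes erythroid ankyrin, which links spectrin to band 3. Chromosome 8 of chIP1 carried 25 probes around each of a pair of ANK1 starts, and they differed in level. Around the start of transcripts NM_000037 and NM_020477, 18 of the 25 probes were above 0 and their mean was 0.45. Around the start of NM_020478 and NM_020481, 8 of 25 were above 0, with a mean of -0.11 and a highest window of 0.55. At the first of these starts the highest window was 1.13, centered 1078 bp upstream (41775239 to 41775508), with probes of 1.12, 1.03 and 1.23. Its IP intensities of 6682, 16201 and 11478 stood against 3083, 7948 and 4892 for the IgG. The rise was shallow and long. The 10 probes from 338 bp inside the gene to 1345 bp upstream all lay between 0.52 and 1.23. A further window of 1.05 was centered 2418 bp upstream. Of the probes at the other start, 23 are also annotated to the microRNA hsa-mir-486, at 2338 to 8334 bp from it. They averaged -0.16 and ranged from -0.84 to 1.31.

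SPTB encodes beta spectrin of the red cell. Its 39 probes on chromosome 14 of chIP2 averaged -0.04, and the profile swung to both sides. A pair of separate windows upstream was just past the threshold. The window centered at 2471 bp averaged 1.05 with probes of 0.93, 0.94 and 1.27, and the window at 3809 bp averaged 1.04 with probes of 0.78, 1.23 and 1.12. IP intensities in the first were 747, 1517 and 722, against IgG intensities of 390, 790 and 298. An IgG-side window of -1.12 lay 1543 bp inside the gene. Of the 5 probes within 500 bp of the start, 1 was above 0 and their mean was -0.38. The array annotation names another transcript whose start lies 56683 bp farther upstream, and RefSeq lists 2 SPTB starts 56527 bp apart. Both GATA words of SPTB were in the RefSeq promoter of the upstream start, while that of the other start had none.

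RHAG encodes the Rh-associated glycoprotein, needed for Rh proteins to reach the surface. On chromosome 6 of chIP1 its 32 probes averaged -0.16, the lowest mean of the group. A window of 1.03 was centered 1770 bp upstream, and it rested on 1 probe, with values of 0.71, 1.83 and 0.54. That probe had an IP intensity of 1204 and an IgG intensity of 339. The window of 5 probes was 0.56. At the start itself the 2 probes just upstream read 0.51 and 0.71, and the signal then fell inside the gene to an IgG-side window of -1.05 centered at 642 bp. RHAG also had the dimmest probes of the group, with a median intensity at percentile 41.1 of its array, against 59.5 to 98.6 for the other 7 genes.

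The glycophorins carry the sialic acid coat of the red cell, and GYPB and GYPC the Ss and Gerbich blood groups. GYPC, whose product binds protein 4.1, had 22 of 30 probes above 0 on chromosome 2 of chIP1 and a mean of 0.26, at percentile 78.3 of the genes of the array. Its highest window was 0.87, centered 1734 bp inside the gene, with probes of 0.84, 1.16 and 0.60. A second rise over 558 to 60 bp upstream had probes of 0.82, 0.62, 0.51 and 0.56. GYPC thus combined a mean above that of ANK1, SLC4A1, SPTB, EPB41 and RHAG with no window at 2-fold. GYPB had 1 probe, 1061 bp upstream, at -0.03, with an IP intensity of 7598 and an IgG intensity of 7796. The related GYPE had 1 probe at the like distance of 1065 bp, at 0.05. GYPB and GYPE are near-identical copies, so their values are uncertain, and hybridization of DNA from one copy to the probe of the other was not tested. Neither gene was covered well enough to be called.

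**Figure D2:**
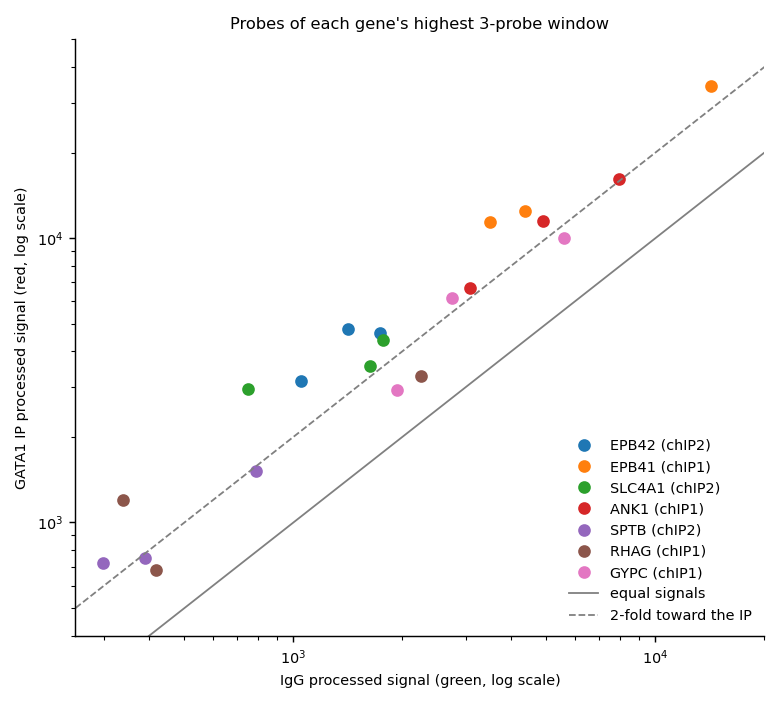
Processed IP intensity against processed IgG intensity, both on log scales and as deposited, of the 3 probes in the highest window of each gene. The solid line marks equal signals and the dashed line 2-fold toward the IP. EPB41 and ANK1 sit at the bright end, SPTB and RHAG hold the dimmest probes, and 1 RHAG probe lies far above the dashed line while the other two lie below it.

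The enriched windows lay at different positions relative to the starts. Windows were then limited to those centered within 1000 bp of a start, by the distance that the array annotation gives with the gene symbol. Of the 7 genes, 2 were enriched in that zone, EPB42 at 1.58 and ANK1 at 1.02, against 34.0% of all genes. By this distance the inner start of EPB41 was not counted, although the window of 1.30 lay 778 bp inside its mRNA. The values of the others in that zone were 0.74 for SPTB, 0.65 for GYPC, 0.51 for SLC4A1, 0.48 for EPB41 and 0.34 for RHAG. Over all windows of the arrays, 10.4% of those within 500 bp of a start were enriched and 4.13% IgG-side, while from 2000 bp upstream outward the shares were 6.57% and 14.8%. The enriched windows of EPB41 at 2937, 2571 and 2385 bp, of SPTB at 2471 and 3809 bp and of ANK1 at 2418 bp lay in that outer zone.

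The scanner software gives each log ratio a p-value from its own error model within 1 array. With the center probe under 0.001 and a neighbor under 0.1, all 7 genes had a window toward the IP and 6 had one toward the IgG, against 85.0% and 79.5% of all genes. With the highest 5% of windows in the same twentieth of intensity as the limit, 5 genes were enriched, against 45.2% of all genes, and RHAG and GYPC were not. EPB42 and EPB41 had 5 windows each past that limit, SLC4A1 3, and ANK1 and SPTB 1. For ANK1 and SPTB this was not the highest window, since those lay below their limits (1.13 against 1.23, and 1.05 against 1.15).

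**Figure D3:**
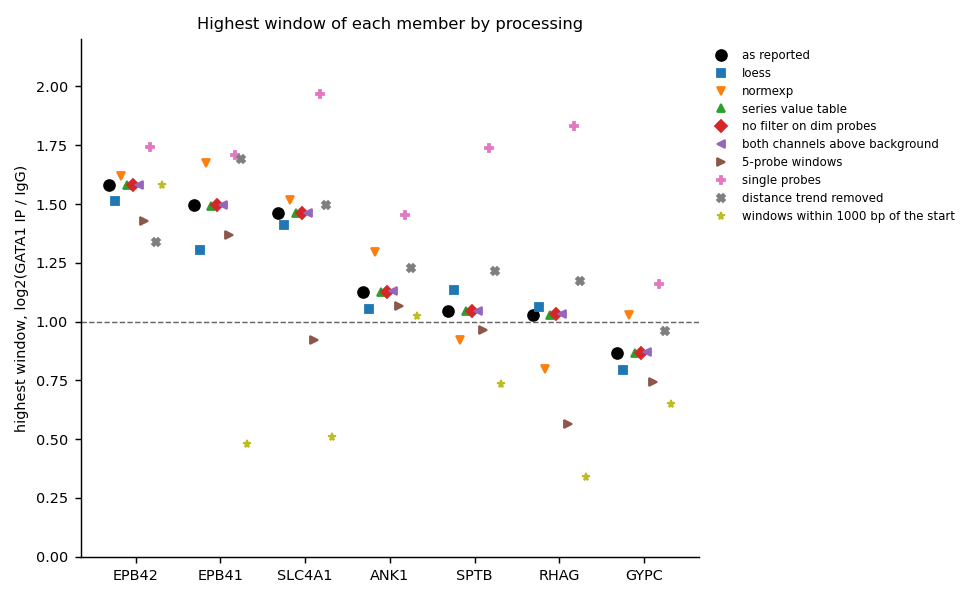
Highest window of each gene, as log2(GATA1 IP/IgG), under the reported processing (black circles) and 9 others. The dashed line is 2-fold. EPB42 stays above it in all 10, between 1.34 and 1.74, while RHAG ranges from 0.34 to 1.83, SPTB from 0.74 to 1.74 and GYPC from 0.65 to 1.16.

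The other genes of the red cell membrane on a list of 41 were read in the same way. Of these 39 were on the arrays, 37 had a window, 23 of the 37 (62.2%) had an enriched window and 19 (51.4%) an IgG-side window. Their median highest window was 1.39. The 6 highest were ADD2 (2.75), KEL (2.63), BSG (2.03), SEMA7A (1.98), ABCB6 (1.93) and DARC (1.86), all above the 1.58 of EPB42. ADD2 encodes beta adducin, which caps actin at the mesh, and KEL carries the Kell blood group. KEL had 18 enriched windows of 39 and ABCB6, a porphyrin transporter with the Lan antigen, 8 of 15. The 3 lowest were CD44 (0.68), SLC14A1 (0.65), the Kidd urea transporter, and TMOD1 (0.41), a cap of the actin filaments. Genes of heme synthesis had an enriched window in 7 of 9, with a median highest window of 1.64 and a median of 24 windows a gene. Globin genes had an enriched window in 5 of 10, with medians of 1.01 and 14. The membrane protein genes stood at 6 of 7, 1.13 and 37, and all genes at 57.1%, 1.09 and 23. Since these lists differ in the number of windows, no order was read from their counts.

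**Figure D4:**
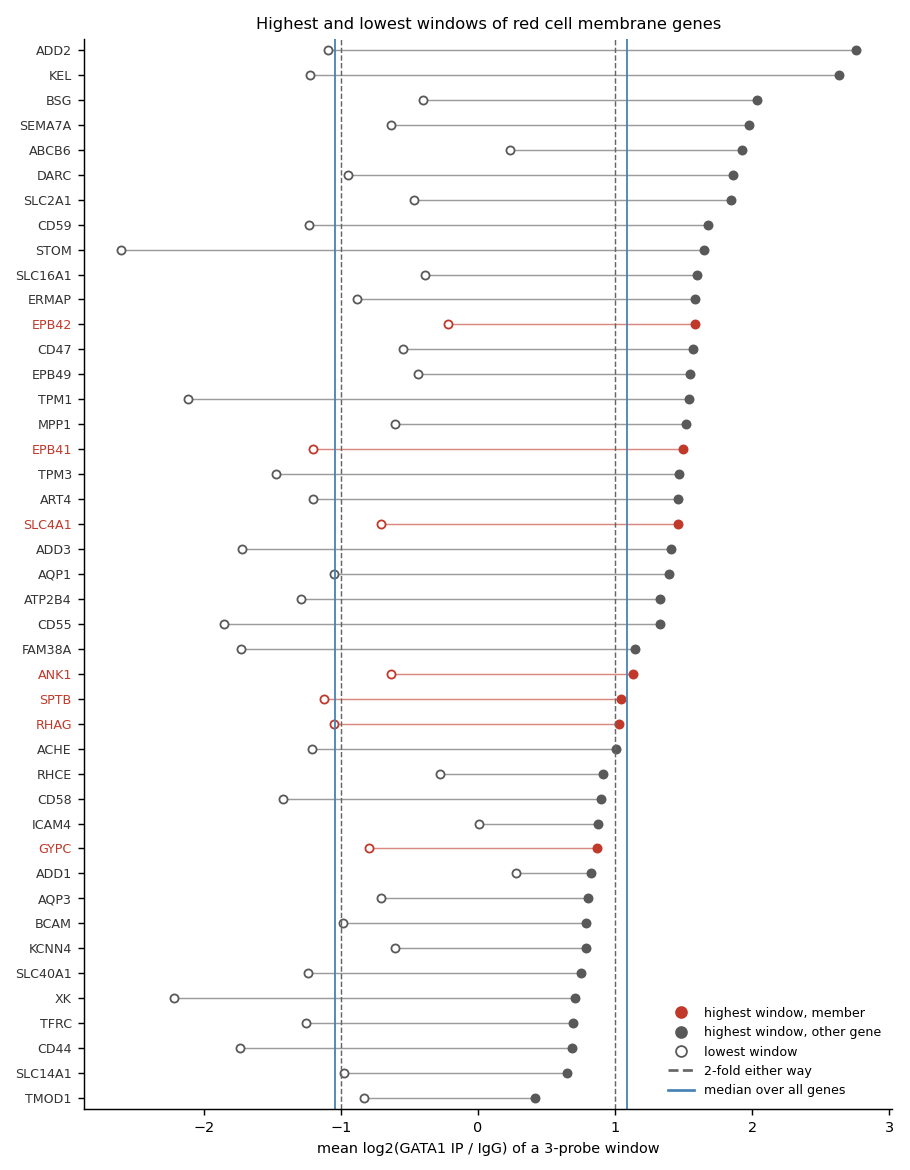
Highest (filled) and lowest (open) 3-probe window of red cell membrane genes with a window, as mean log2(GATA1 IP/IgG), sorted by the highest. The 7 genes described here are in red, 36 others in gray, and blue lines are the medians over all genes (1.09 and -1.05). The red genes sit in the middle of the order, from EPB42 at 1.58 to GYPC at 0.87.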

How the data were processed

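GATA1 IP DNA and IgG pull-down DNA from Meg-01 cells, sheared to fragments of 500 to 1000 bp, were hybridized to 2 promoter arrays. The authors deposited the scanner output. Per the file headers, the intensity values come from Agilent Feature Extraction 9.5.3.1, with a spatial surface subtracted and a linear dye normalization. The deposited log10 ratio is Cy5 over Cy3, and the deposited p-value of each ratio comes from the error model of that software within 1 array. The deposited series table holds the same log10 ratios. The study called peaks in other software, which was not used here.

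Probes were kept unless they were controls, non-uniformity outliers or well above background in neither channel (237004 of 237210 on chIP1 and 236864 of 237201 on chIP2). Raw signals were low, with a median mean signal of 543 and 544 in the IP channel and 412 and 440 in the IgG channel, against 342 and 340, and 303 and 303, for negative controls. The number of arrays limits the precision. Enriched windows within 1000 bp were joined. Windows were computed in Python 3.11.15 and tested on simulated data, and loess and normexp (offset 50) were run in limma 3.58.1. Other alternatives were the series table, dim probes kept, probes well above background in both channels, 5-probe windows, single probes, removal of the distance trend (500 bp steps to 6000 bp), windows within 1000 bp of the start, thresholds of 1.5-fold and 3-fold, intensity twentieths and the p-value rule. Named genes were the 8 members and the 6 highest and 3 lowest of the other membrane genes, and GYPE was named beside GYPB after its value had been seen. Further genes that the rule names are not reported here. The members and lists were chosen with earlier results of these data known. RHD and CR1 were not found under the symbols searched, and EPB49, FAM38A, FY (listed as DARC) and DAF (listed as CD55) are the symbols of the array.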

Additional observations from a re-analysis of the deposited data

How the results depend on the processing

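No paired analysis was possible because the pair of arrays has no probe in common and no result comes from a test. No alternative turned a gene's highest window below 0, but a maximum over many windows is seldom below 0. On chIP2 a highest window of -0.13 was at percentile 1.4 of genes. Of the 63 values of single genes under other settings, 52 stayed on the same side of 2-fold, 9 fell below it and 2 rose above it. The number of the 7 genes with an enriched window was 6 as reported, against 57.1% of all genes. It became 3 with 5-probe windows (34.6% of all genes), 2 with windows within 1000 bp of the start (34.0%) and 0 at 3-fold (20.6%). With normexp it was 5, against 33.1% of all genes. The highest windows of EPB41, EPB42, SLC4A1 and ANK1 were then at percentiles 97.2, 97.1, 95.4 and 86.0 of genes. As reported these were 73.7, 80.4, 75.0 and 50.4. GYPC went from 30.5 to 66.8, SPTB from 48.8 to 62.3 and RHAG from 43.0 to 44.0. The number with an IgG-side window was 3 as reported. It became 0 with normexp and at 3-fold, and 1 with 5-probe windows and with windows within 1000 bp of the start. With single probes, at 1.5-fold and by the p-value rule it was 6. Over all genes the IgG-side share was 52.9% as reported and 79.5% by the p-value rule, and it is not given here for these other settings. The median highest window, 1.13 as reported, was 0.97 with 5-probe windows and 0.65 with windows within 1000 bp of the start, and rose to 1.72 with single probes, where GYPB also counts. The number of other red cell membrane genes with an enriched window was 23 of 37 as reported. With single probes it was 36 of 39, against 86.1% of all genes. At 1.5-fold and by the p-value rule it was 36 of 37, against 85.0% of all genes each time. At 3-fold it was 10 of 37, against 20.6%. By construction a longer window averages more probes, and a window near the start leaves out distant probes. The cause of these changes was not tested. With normexp, GYPC rose to 1.03 while SPTB was at 0.92 and RHAG at 0.80. What limits every value is 1 hybridization per probe. The highest windows of SPTB and RHAG were at percentile 36.5 and 53.5 of window intensity on their arrays.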
